A study of Mus musculus with 11 samples.

Results

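The 8 genes described here encode proteins that move chloride, sodium and water across the lung epithelium. They were chosen by symbol: Cftr, Slc26a9, Ano1 and Slc12a2 for chloride secretion, Scnn1a, Scnn1b and Scnn1g for sodium absorption, and Atp1b1 for the sodium pump. Each symbol stood on 1 of the 24421 rows of the count table, and all 8 genes passed the filter on low counts. The measurements are bulk RNA sequencing of cells selected on EpCAM microbeads from mouse lungs at E17.5, late in gestation. There were 11 libraries, 6 labelled Control and 5 labelled PRDM3/16KO. The knockout mice had floxed alleles of Prdm16 and of Prdm3, whose present symbol is Mecom, and the ShhCre allele, in which Cre is driven from Shh, a gene switched on in lung epithelium. Sires were homozygous for floxed Prdm3, heterozygous for floxed Prdm16 and Cre-positive, and dams were homozygous for both floxed genes. Which floxed alleles the Control mice carried, and whether any had Cre, is not given in the sources used here. No source says whether each library was a different animal; p-values here therefore cover only the spread from library to library, which may be technical.

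Before birth the lung epithelium secretes fluid. Chloride enters the cell from the blood side through the sodium-potassium-chloride cotransporter encoded by Slc12a2 and leaves on the luminal side through channels such as CFTR, and sodium and water follow. Around birth the epithelium turns to absorption: sodium enters through the epithelial sodium channel ENaC, built of the alpha (Scnn1a), beta (Scnn1b) and gamma (Scnn1g) subunits, and is pumped out by the sodium pump, of which Atp1b1 encodes a beta subunit.

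The libraries held 6065906 to 7869787 counts. Values are CPM, counts scaled to a common library total after TMM (trimmed mean of M values) adjustment, and log2 fold changes are signed so that positive means higher in the knockout. Of the targeted genes, Prdm16 went from 202 ± 21.9 (SD, n = 6 Control) to 165 ± 12.2 CPM (SD, n = 5 knockout) and Mecom from 218 ± 9.97 to 340 ± 16.0 CPM. The counts cover whole genes and would include transcripts that lack the deleted exons, so they check the deletion weakly. Epcam, on whose protein the cells were captured, was not called (0.051 on the log2 scale, with edgeR adjusted p = 0.601). Summed CPM of 8 epithelial markers ran from 4721 to 5116 in Control and from 4385 to 4697 in knockout libraries, and 4 of the 8, among them Nkx2-1 and Elf3, fell. Control libraries 5 and 6 stood apart: proliferation genes averaged 4.64 and 5.03 log2 CPM there, while the remaining Control libraries had 3.38 to 3.94 and the knockout 3.70 to 4.22.

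Of the 4 chloride genes 3 fell and 1 rose, the pump gene fell, and of the 3 sodium channel genes 1 rose, 1 fell and 1 was not called. Cftr, Slc26a9 and Atp1b1 fell more than 2-fold, with log2 fold changes of -1.69, -2.22 and -1.21. Slc12a2 and Scnn1a fell by less, Scnn1g and Ano1 rose, and Scnn1b did not pass the test. In all, 7 of the 8 members were called, 2 higher and 5 lower, by edgeR's quasi-likelihood test at an adjusted p of 0.05. Among all 13916 genes tested 42.9% were called, 21.1% higher and 21.8% lower. Ranges of the 2 groups did not overlap for 5 of the 8 members, against 28.5% of all genes, and 3 of the 8 were called lower at least 2-fold, against 4.5% of all genes. No member was called higher at least 2-fold, against 6.92% of all genes. The members were chosen with earlier results of these data known. By Control CPM they stood in the top 0.546% (Atp1b1) to 29.8% (Scnn1b) of the genes tested. The shares of all genes are therefore a background and not a test of the members as a set. The median log2 fold change was -0.33 over the members and 0.0023 over all genes tested. In bulk samples such as these, fewer cells of a type and less RNA per cell cannot be told apart.

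**Figure D1:**
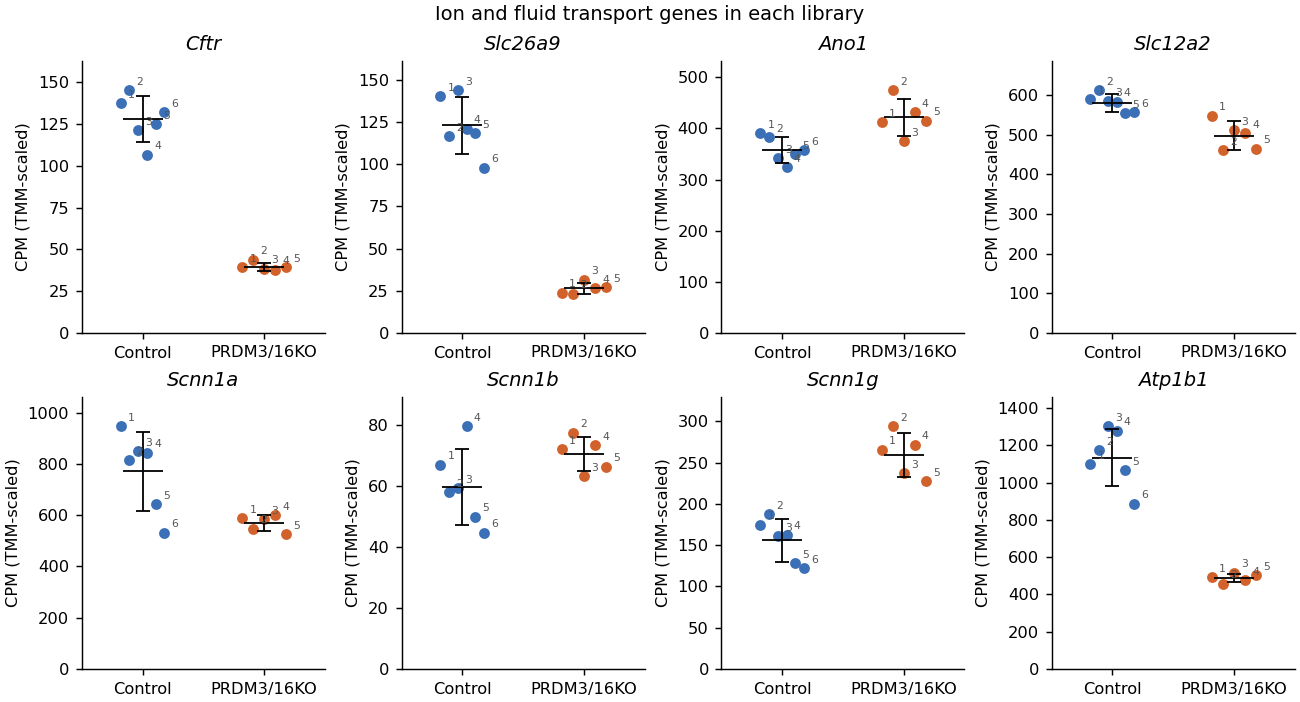
Level of each of the 8 members in every library, in CPM on TMM-scaled library sizes; each point is a library with its replicate number, and bars give the mean and SD of 6 Control and 5 PRDM3/16KO libraries. Cftr, Slc26a9 and Atp1b1 lie far lower in every knockout library than in any Control library, Scnn1g lies higher, and the ranges of Ano1, Scnn1a and Scnn1b overlap.

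The sequences just upstream of the 4 members with the largest changes are shown, 3 that fell and 1 that rose, because these are the genes whose transcript level moved most. They are from RefSeq on GRCm38.p6, the build also called mm10, and run 5′ to 3′ on the gene's strand up to the first base before the annotated start; for Scnn1g the run stops before an earlier annotated start. Capitals mark CCAAT and TATAAA, sought on both strands.
Cftr (chr6:18170437-18170686, plus strand): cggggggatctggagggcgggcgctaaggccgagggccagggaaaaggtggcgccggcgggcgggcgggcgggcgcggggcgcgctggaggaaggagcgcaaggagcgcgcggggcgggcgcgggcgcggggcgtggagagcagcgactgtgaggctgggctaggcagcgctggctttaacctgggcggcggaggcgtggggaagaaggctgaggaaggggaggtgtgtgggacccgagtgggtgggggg
Slc26a9 (chr1:131743772-131744021, plus strand): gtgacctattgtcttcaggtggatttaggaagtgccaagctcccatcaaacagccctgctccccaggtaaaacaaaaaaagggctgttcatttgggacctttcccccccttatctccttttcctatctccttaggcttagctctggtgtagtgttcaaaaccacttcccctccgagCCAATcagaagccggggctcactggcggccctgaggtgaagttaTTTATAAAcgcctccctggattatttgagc
Atp1b1 (chr1:164458356-164458605, minus strand): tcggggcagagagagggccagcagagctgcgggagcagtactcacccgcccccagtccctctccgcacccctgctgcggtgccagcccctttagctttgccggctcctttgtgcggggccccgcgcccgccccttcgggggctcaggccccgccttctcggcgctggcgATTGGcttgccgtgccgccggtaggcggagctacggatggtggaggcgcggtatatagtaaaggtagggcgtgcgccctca
Scnn1g (chr7:121734229-121734419, plus strand): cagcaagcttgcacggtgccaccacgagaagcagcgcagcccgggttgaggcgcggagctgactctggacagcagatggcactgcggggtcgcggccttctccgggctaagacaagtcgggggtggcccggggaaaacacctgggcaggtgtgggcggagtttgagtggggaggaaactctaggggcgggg
Slc26a9 held CCAAT at positions -74 to -70 from its start and TATAAA at -28 to -23, the latter overlapping its reverse complement at -30 to -25. Atp1b1 held CCAAT on the opposite strand at -81 to -77. Neither motif was in the windows of Cftr and Scnn1g, nor were CTCAAG and CAAGTG, core letters of NKX2 family sites, in any of the 4. Of 32841 RefSeq windows of 250 bases, 33.9% held CCAAT, 12.4% TATAAA, 13.3% CTCAAG and 11.6% CAAGTG; for windows cut to 191 bases, the length shown for Scnn1g, the shares were 26.9%, 8.78%, 10.7% and 9.37%. G and C made up 76.4% of the Cftr window, 70.4% of that of Atp1b1 and 50.0% of that of Slc26a9, against a median of 52.4%. For Scnn1g, which rose, they made up 67.0%, against a median of 51.3% for windows of 191 bases. A match describes the letters only. The 3 members that fell and are shown here thus did not share any of these 4 motifs in exact letters across all their windows. Near matches, such as tatata in the Atp1b1 window, were not sought. Slc12a2 and Scnn1a had no entry in the promoter table.

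Cftr encodes the chloride and bicarbonate channel that opens on phosphorylation by protein kinase A. It lies on chromosome 6 from 18170687 to 18322768 (mm10, plus strand). Control libraries 1 to 6 held 138, 145, 121, 107, 125 and 132 CPM of Cftr, and knockout libraries 1 to 5 held 39.5, 43.8, 38.4, 37.8 and 39.2. No Control library came near the knockout range, and the knockout libraries lay close together. The mean went from 128 ± 13.6 (SD, n = 6) to 39.7 ± 2.39 CPM (SD, n = 5), 3.22-fold lower (-1.69 on the log2 scale, SE 0.080; edgeR adjusted p = 3.80e-10). An antisense gene, Gm15592, shares exon bases with Cftr, and whether counting used strand is not given in the sources used here.

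Slc26a9, an anion channel and exchanger of airway and stomach epithelium that is known to interact with CFTR, fell further. It lies on chromosome 1 from 131744022 to 131771504 (plus strand). Its Control levels were 140, 117, 144, 121, 118 and 98.0 CPM, and the knockout gave 23.8, 23.2, 31.5, 26.3 and 27.0. The lowest Control library, number 6, was still above every knockout library. The mean was 123 ± 16.9 CPM in Control and 26.4 ± 3.26 CPM in the knockout, 4.66-fold lower (log2 fold change -2.22, SE 0.11; edgeR adjusted p = 4.68e-10). By size of change, Slc26a9 stood in the top 2.95% and Cftr in the top 4.89% of the genes tested.

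Ano1 encodes the calcium-activated chloride channel also called TMEM16A, a second luminal route for chloride. It lies on chromosome 7 from 144588549 to 144751974 (minus strand). Ano1 stood at 391, 383, 342, 324, 350 and 358 CPM across Control and 412, 475, 375, 432 and 415 CPM across the knockout. Knockout library 3 lay below Control libraries 1 and 2, and the other 4 knockout libraries lay above all Control libraries. Ano1 rose from 358 ± 25.3 to 422 ± 36.3 CPM, 1.18-fold (log2 fold change 0.24, SE 0.073; edgeR adjusted p = 0.0166). Among the 2 Control and 4 knockout libraries with low Y-linked transcripts the log2 fold change was 0.17 and not called (edgeR adjusted p = 0.271); among the 4 Control libraries and 1 knockout library with high ones it was 0.29, with 1 library in the knockout arm.

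Slc12a2, the cotransporter that loads the cell with chloride from the blood side, lies on chromosome 18 from 57878678 to 57946821 (plus strand). Control gave 589, 613, 585, 583, 554 and 557 CPM, whereas the knockout gave 549, 462, 511, 504 and 465. The ranges did not overlap, but knockout library 1 lay just below the lowest Control library. Slc12a2 fell from 580 ± 21.7 to 498 ± 36.1 CPM (-0.22 on the log2 scale, SE 0.065; edgeR adjusted p = 0.0126). Without knockout library 2 it was -0.18 and not called (edgeR adjusted p = 0.0538), and with library-size scaling alone it was -0.11 (edgeR adjusted p = 0.131).

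Scnn1a, the ENaC subunit without which the channel conducts little current, lies on chromosome 6 from 125320659 to 125344943 (plus strand). Scnn1a levels were 946, 814, 850, 843, 644 and 531 CPM for Control and 589, 548, 584, 600 and 525 CPM for knockout. Control libraries 1 to 5 lay above every knockout library, and Control library 6 lay among them. Scnn1a fell from 771 ± 153 to 569 ± 31.6 CPM (log2 fold change -0.44, SE 0.12; edgeR adjusted p = 0.00983). The log2 fold change was -0.60 without Control libraries 5 and 6 (edgeR adjusted p = 2.96e-06). Among libraries with low Y-linked transcripts it was -0.27 and not called (edgeR adjusted p = 0.237); among those with high ones, which include 1 knockout library, it was -0.46, about the size with all libraries.

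Scnn1b, the beta subunit, lies on chromosome 7 from 121865038 to 121918514 (plus strand). Its level was low, with 66.8, 57.9, 59.2, 79.4, 49.8 and 44.6 CPM for Control and 71.9, 77.4, 63.2, 73.3 and 66.3 CPM for knockout. The highest level was in Control library 4, and the groups overlapped. The means were 59.6 ± 12.4 and 70.4 ± 5.68 CPM, differing by 0.25 on the log2 scale (SE 0.12; edgeR adjusted p = 0.12). Without Control library 4 it was 0.34 and called (edgeR adjusted p = 0.0102), and without Control libraries 5 and 6 it was 0.097 (edgeR adjusted p = 0.429).

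Scnn1g, the gamma subunit, lies 96.6 kb before Scnn1b on the same strand, from 121734479 to 121768475. Control held 175, 188, 161, 162, 128 and 122 CPM of it and the knockout 265, 294, 237, 272 and 228. All knockout libraries lay above all Control libraries. Scnn1g rose 1.66-fold, from 156 ± 25.9 to 259 ± 26.9 CPM (log2 fold change 0.73, SE 0.11; edgeR adjusted p = 6.66e-05), and the log2 fold change was 0.59 without Control libraries 5 and 6. Among Control libraries, all 3 subunits and Atp1b1 were lowest in library 6 and next lowest in library 5, the pair with the high proliferation level; its part in these results was not tested other than by leaving both out.

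Subunits of 1 channel can be set against each other within a library, where the scaling of libraries drops out. The log2 ratio of Scnn1g over Scnn1a counts ran from -2.44 to -2.12 in Control and from -1.30 to -0.90 in knockout libraries, a difference in means of 1.16. For Scnn1b over Scnn1a the ranges were -3.84 to -3.41 and -3.21 to -2.82, a difference of 0.67. For Scnn1g over Scnn1b they were 1.03 to 1.70 and 1.78 to 1.92, a difference of 0.48. Both smaller subunits therefore gained on Scnn1a, and Scnn1g gained on Scnn1b. The first 2 differences had p = 0.00216 and the third p = 0.00433 (exact permutation test, two-sided, 6 against 5 libraries), or 0.00271 and 0.00433 adjusted over the 5 ratios tested, of which 4 are given here; 0.00216 is the smallest p that this design allows.

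**Figure D2:**
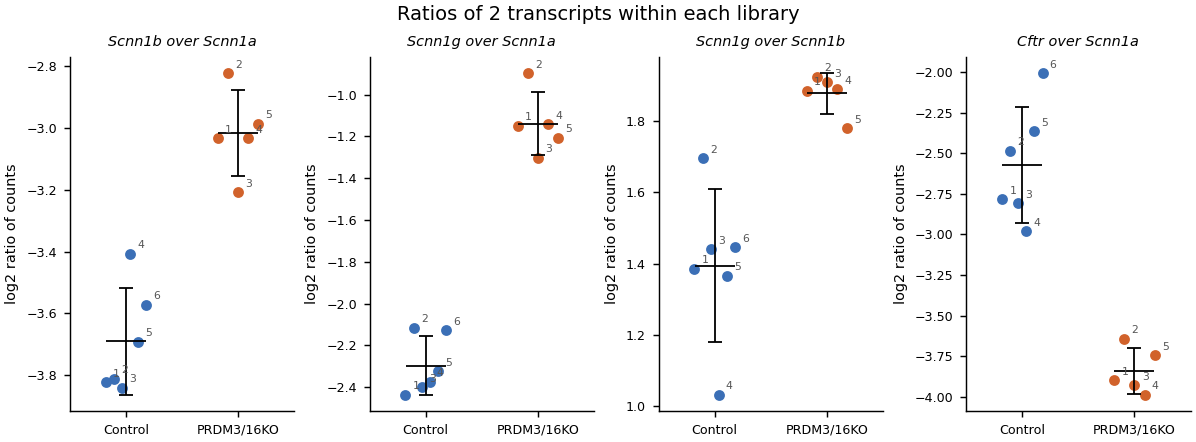
Log2 ratio of the counts of 2 transcripts in each library, with 0.5 added to each count; points are libraries with their replicate number and bars the mean and SD of 6 Control and 5 PRDM3/16KO libraries, on axes that do not start at 0. In each of the 4 panels the groups are apart, with Scnn1g over Scnn1a at -2.44 to -2.12 in Control and -1.30 to -0.90 in the knockout.

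Per kb of merged exons, Scnn1a made up 71.2% ± 1.65 (SD, n = 6) of the summed level of the 3 subunits in Control and 54.9% ± 2.48 (SD, n = 5) in the knockout. Scnn1g made up 20.1% ± 1.59 and 34.5% ± 2.03, and Scnn1b 8.69% ± 0.993 and 10.7% ± 0.569. Scnn1a thus kept the highest counts per kb of the 3 subunits in both groups. How fully reads were aligned and counted can differ between genes and was not tested, so counts per kb need not rank transcript amounts.

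Atp1b1, the beta subunit that carries the sodium pump to the membrane, lies on chromosome 1 from 164437109 to 164458355 (minus strand). The Control series read 1099, 1173, 1303, 1280, 1066 and 887 CPM, and the knockout series 492, 459, 517, 478 and 503. Every knockout library lay far below the lowest Control library, number 6. Atp1b1 fell from 1135 ± 154 to 489 ± 22.3 CPM, 2.32-fold (log2 fold change -1.21, SE 0.094; edgeR adjusted p = 7.02e-08). Exons of Nme7, on the other strand, share bases with it, and Nme7 was counted at 3.97 CPM in Control and 3.41 CPM in the knockout.

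Atp1b3, another beta subunit, had 153 ± 12.8 CPM in Control and 145 ± 6.53 CPM in the knockout and did not pass (log2 fold change -0.075; edgeR adjusted p = 0.381). Per kb, Atp1b1 was at 368 ± 49.9 CPM in Control and 159 ± 7.24 in the knockout, and Atp1b3 at 63.8 ± 5.34 and 60.6 ± 2.73. Atp1b1 thus had the higher counts per kb of these 2 beta subunit genes in both groups, with ranges that did not overlap.

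**Figure D3:**
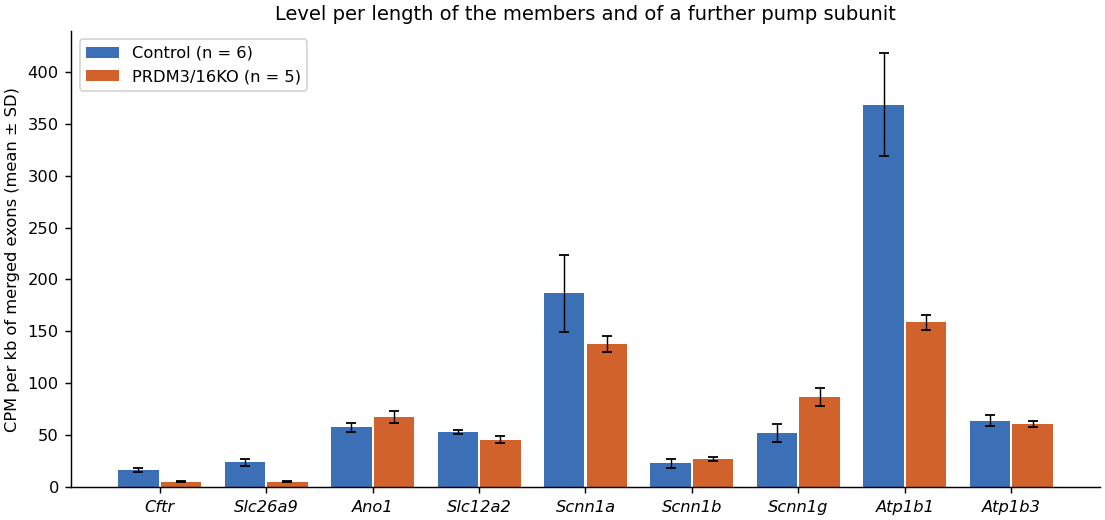
Mean level in CPM per kb of merged GENCODE exons for the 8 members and for Atp1b3, with SD over 6 Control (blue) and 5 PRDM3/16KO (orange) libraries. Atp1b1 is the highest in both groups, at 368 and 159 CPM per kb, and Cftr and Slc26a9 are the lowest in the knockout, at 5.11 and 5.04.

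Ordered by level per kb in Control, Atp1b1 led at 368 CPM per kb and Scnn1a followed at 187. The order is one of counts per kb, which need not be that of transcript amounts. Ano1 (57.3), Slc12a2 (53.1) and Scnn1g (52.2) came next with overlapping ranges, then Slc26a9 (23.6) and Scnn1b (22.6), which also overlapped, and Cftr (16.5), whose range overlapped that of Scnn1b. In the knockout the order was Atp1b1 (159), Scnn1a (138), Scnn1g (86.7), Ano1 (67.5), Slc12a2 (45.6) and Scnn1b (26.7), none overlapping its neighbour, and then Cftr (5.11) and Slc26a9 (5.04), which overlapped. The log2 ratio of Cftr over Scnn1a counts ran from -2.98 to -2.01 in Control and from -3.99 to -3.64 in the knockout, a difference of -1.27 (exact permutation test, p = 0.00216, adjusted p = 0.00271). This direction holds for Cftr and not for every chloride gene: the log2 fold changes of Ano1 (0.24) and Slc12a2 (-0.22) lay above that of Scnn1a (-0.44).

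Beyond the members, 117 other transport genes in 9 lists were read, chosen with earlier results known. Of these, 84 passed the filter on low counts, and 14 rose, 29 fell and 41 did not pass the test, where 21.1% of all genes tested rose and 21.8% fell. The balance of higher and lower calls moved with the scaling, among these genes and among all genes. With library size only 23 were higher and 21 lower, against 3980 and 2107 of all 13916 genes. With upper-quartile factors 20 were higher and 25 lower, against 3445 and 2506 of all genes, where TMM gave 2936 and 3036. The median log2 fold change of the 84 other transport genes tested was -0.011, against 0.0023 for all genes. A gene near 0 in Control passes the filter only where the knockout is higher.

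Among 12 anion channels and exchangers tested, 6 fell and 1 rose. The sodium bicarbonate cotransporter genes Slc4a4 and Slc4a5 fell, from 79.0 ± 2.71 to 41.3 ± 2.25 CPM (log2 fold change -0.94) and from 84.3 ± 18.5 to 23.1 ± 2.48 CPM (-1.86). The anion exchanger Slc4a2 (-0.55) and the scramblase and channel Ano6 (-0.57) fell as well. Lrrc8a, a subunit of the volume-regulated anion channel, had a log2 fold change of -0.036 and the proton-activated chloride channel gene Tmem206 of 0.15, and neither passed. Of the carbonic anhydrase genes, which supply bicarbonate and protons, Car2 fell from 132 ± 10.9 to 26.9 ± 3.17 CPM (-2.29) and Car13 rose (0.46). Car8, a relative of the carbonic anhydrases without enzyme activity, was at 122 ± 38.5 and 119 ± 8.84 CPM and did not pass.

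Cation-chloride cotransporters and the kinases that set them gave 5 higher and 2 lower of 10. The WNK kinase genes Wnk2 and Wnk3 rose, from 25.1 ± 3.56 to 95.0 ± 4.69 CPM (log2 fold change 1.93) and from 2.21 ± 1.1 to 12.3 ± 2.44 CPM (2.41). Wnk1, the most abundant of them, was at 850 ± 147 and 882 ± 43.8 CPM and did not pass. Slc12a8 rose from 0.186 ± 0.126 to 5.67 ± 1.39 CPM (4.73) on 8 counts over all Control libraries, while the potassium chloride cotransporter gene Slc12a7 (-0.12) did not pass.

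Of 15 tested regulators of the sodium channel, 6 fell and 1 rose. St14, a membrane protease that can activate ENaC, fell (log2 fold change -0.45), as did the ubiquitin ligase Nedd4l (-0.35), which removes ENaC from the membrane, the glucocorticoid-induced Tsc22d3 (-0.44) and the glucocorticoid receptor Nr3c1 (-0.28). The protease inhibitor Spint2 (-0.036) and the protease Tmprss2 (0.12) did not pass. The group ranges of Nedd4l, Tsc22d3 and Nr3c1 overlapped, and all 3 calls were lost with the level of mesenchymal markers as a covariate (edgeR adjusted p = 0.151, 0.0641 and 0.132). Their log2 fold changes there were -0.28, -0.43 and -0.28, close to those without it, with larger SEs of 0.13, 0.16 and 0.13. The mesenchymal level did not overlap between the groups (at most 4.35 log2 CPM in Control and at least 4.36 in the knockout), so the covariate and the genotype can barely be told apart.

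Potassium channels of transporting epithelia, which keep the cell negative inside, gave 2 higher and 3 lower of 10. These counts are near the shares of all genes tested, 21.1% higher and 21.8% lower. Kcnj15, with the highest Control CPM of the list, fell from 325 ± 58.8 to 111 ± 17.4 CPM (log2 fold change -1.55). Kcnq1 fell from 26.5 ± 2.95 to 6.98 ± 0.847 CPM (log2 fold change -1.92). Of the accessory subunits of Kcnq1, Kcne2 fell from 57.8 ± 18.6 to 5.64 ± 0.886 CPM (-3.34) and Kcne3 rose from 0.816 ± 0.277 to 6.91 ± 1.2 CPM (3.05). Kcnk5 rose from 32.3 ± 3.26 to 71.7 ± 5.30 CPM (1.15), and Kcnk1 (-0.12) and Kcnk2 (0.050) did not pass.

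Receptors and signals that drive transport gave 2 higher and 6 lower of 14. Adora2b, an adenosine receptor that raises cAMP, fell from 95.7 ± 29.7 to 11.9 ± 3.17 CPM (log2 fold change -3.0), and P2ry2, a receptor for luminal ATP, fell (-0.84). Guca2a, the gut peptide guanylin, rose from 0.448 ± 0.303 to 26.6 ± 3.72 CPM (5.84), and the VIP receptor gene Vipr1 from 1.39 ± 0.375 to 8.63 ± 1.56 CPM (2.60). Pde4d, which breaks down cAMP, did not pass (0.16). Of 8 CFTR partners and scaffolds tested, 2 fell: Ezr, from 915 ± 143 to 575 ± 32.8 CPM (-0.67), and Slc9a3r1 (-0.43), which tie CFTR to the cytoskeleton. Ahcyl1 (0.10) and Slc9a3r2 (0.33; edgeR adjusted p = 0.0588) did not pass, but Slc9a3r2 was called higher in 9 of 26 alternatives, among them DESeq2 (adjusted p = 0.0417), limma-voom (adjusted p = 0.0411) and leaving out Control library 4 (0.43).

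Aquaporins, the water channels, had 2 of 5 tested members lower. Aqp1 fell from 1059 ± 333 to 703 ± 77.4 CPM (by -0.59 on the log2 scale; edgeR adjusted p = 0.0344) and Aqp4 from 50.3 ± 14.2 to 33.6 ± 5.49 CPM (-0.58; edgeR adjusted p = 0.0196), both with overlapping ranges. The Aqp1 call was lost in 15 of 26 alternatives, among them leaving out any one of Control libraries 1 to 4 or knockout libraries 1, 2, 3 and 5, which gave -0.50 to -0.60; without Control libraries 5 and 6 it was -0.85. The Aqp4 call was lost in 7 of 26 alternatives, among them leaving out knockout library 2 (-0.48) and scaling by library size only (-0.47; edgeR adjusted p = 0.0502), with values from -0.83 to -0.40 over all of them. Aqp5, the water channel of type 1 cells, was at 394 ± 157 and 522 ± 80.8 CPM and did not pass (0.41; edgeR adjusted p = 0.219), nor did Aqp3 (0.031).

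**Figure D4:**
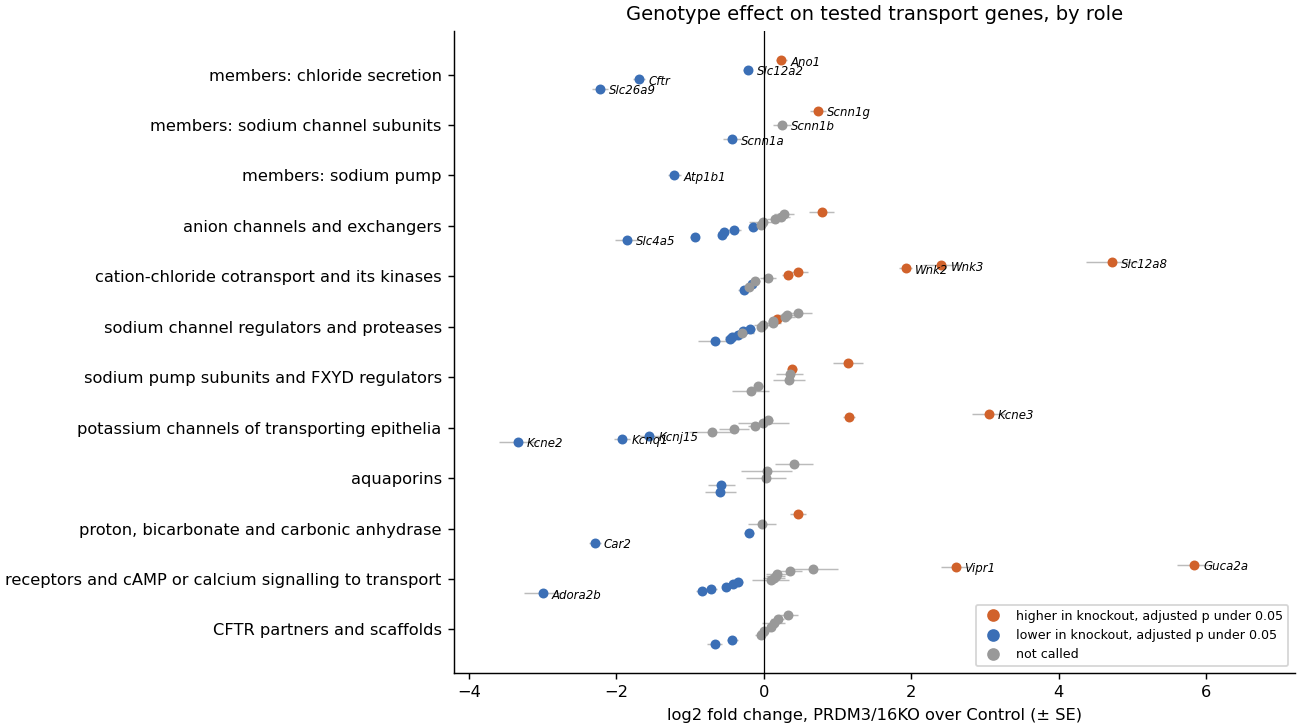
Log2 fold change, knockout over Control, with its SE, for the 8 members and the 84 other transport genes that passed the filter on low counts, 1 row per list; orange and blue points were called higher and lower by edgeR and grey points were not. The lists of anion channels and of receptors hold more blue than orange points, and Slc12a8 and Guca2a reach the largest increases, at 4.73 and 5.84.

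Markers of some cell types also differed between the groups. Summed CPM of 10 type 2 cell markers, among them Sftpc, Lamp3 and Abca3, was 7244 to 12750 in Control and 2487 to 3766 in knockout libraries, and all 10 fell; none was at 0. Of 12 type 1 markers 4 rose and 2 fell, with sums of 7488 to 12070 and 10780 to 13040 CPM. Of 8 neuroendocrine markers 7 rose, with sums of 27.7 to 53.0 and 562 to 701 CPM, and Resp18 was not tested. Mesenchymal markers rose in 7 of 12 cases (sums of 410 to 649 and 635 to 1193 CPM) and mesothelial ones in 6 of 8 (1137 to 1617 and 1650 to 1936 CPM). Most of the mesothelial sum was Krt19, with means of 1130 and 1274 CPM, which was not called. Msln, the next most abundant, rose from 208 to 430 CPM. Of 8 endothelial markers 3 rose and 1 fell, with sums of 61.7 to 104 and 49.0 to 70.6 CPM. The marker that fell was Kdr, the most abundant of them, from 57.95 to 24.64 CPM. Pecam1, Cdh5 and Tie1 rose (log2 fold changes 1.07, 0.84 and 0.85). The mean log2 CPM of the endothelial list, unlike its sum, tended higher in the knockout (1.52 to 2.16 in Control and 1.9 to 2.44 in knockout libraries, overlapping). Of 8 blood and immune markers 2 rose, with sums of 241 to 1207 and 428 to 758 CPM. Most of these sums was Lyz1, with means of 690.8 and 490.5 CPM, which was not called. Ptprc rose from 1.97 to 4.71 CPM and Csf1r from 9.15 to 22.4 CPM, and Cd68 (10.7 and 9.97 CPM) was not called. Hba-a1 and Hbb-bt, globin genes with near-identical copies, were listed at 0 in all libraries. Of 6 secretory markers 2 fell (824 to 1806 and 741 to 1278 CPM), and of 8 ciliated markers 2 rose and 1 fell (1188 to 1876 and 1338 to 1628 CPM). The part of these cell types in the members' changes was not tested. With the mean log2 CPM of the mesenchymal list as a covariate, Cftr (-1.61), Slc26a9 (-2.35), Atp1b1 (-1.18), Scnn1g (1.0) and Ano1 (0.37) kept their calls, and Slc12a2 (-0.22) and Scnn1a (-0.36) lost theirs (edgeR adjusted p = 0.169 and 0.237), with SEs of 0.11 and 0.20 against 0.065 and 0.12 without the covariate.

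Ionocytes, rare airway cells known for very high Cftr, were read through 8 markers. Foxi1 and Stap1 had no Control count and stood at 0.304 and 0.0766 CPM in the knockout, and Ascl3 at 0.249 and 0.357 CPM. Among the markers tested, Tfcp2l1 fell from 240 to 96.2 CPM, Atp6v1c2 from 26.8 to 3.05 CPM and Atp6v1b1 from 3.75 to 0.968 CPM. Moxd1, at 2.56 and 1.93 CPM, did not pass. In all, 3 of the 8 fell and 4 were not tested. Summed CPM was 186 to 357 in Control and 95.7 to 109 in the knockout, most of it from Tfcp2l1. The part of ionocytes in the Cftr result was not tested.

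Across the 11 libraries, the genes whose level followed each called member most closely were found after subtracting group means, as Pearson's r of log2 CPM. These are descriptions over points that share library and depth. They are the highest among the genes tested, with predicted genes and unnamed clones left out. For Scnn1g they were Vegfa, Mal and Emp2 (r = 0.971, 0.969 and 0.963; 0.938, 0.969 and 0.951 over the 9 libraries without Control 5 and 6). For Atp1b1 they were Tnks2, Tsc22d3 and Erlin1 (0.983, 0.970 and 0.966), for Scnn1a Atp2a2, Rab11fip1 and Ralgapa2 (0.982, 0.981 and 0.977), and for Cftr Psme2, Aasdh and Sh3pxd2a (0.955, 0.922 and 0.913). Slc26a9 was followed by Fitm2, Rab43 and Pld6 (0.944, 0.936 and 0.927), Ano1 by Rapgef1, Agrn and Clcn6 (0.910, 0.897 and 0.884), and Slc12a2 by Kpna4, Tfdp2 and Tmtc2 (0.900, 0.896 and 0.877). Erlin1 fell with Atp1b1 (log2 fold change -1.01) and Pld6 with Slc26a9 (-1.40), whereas Tnks2 (-0.047) and Psme2 (0.32) did not pass between the groups.

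**Figure D5:**
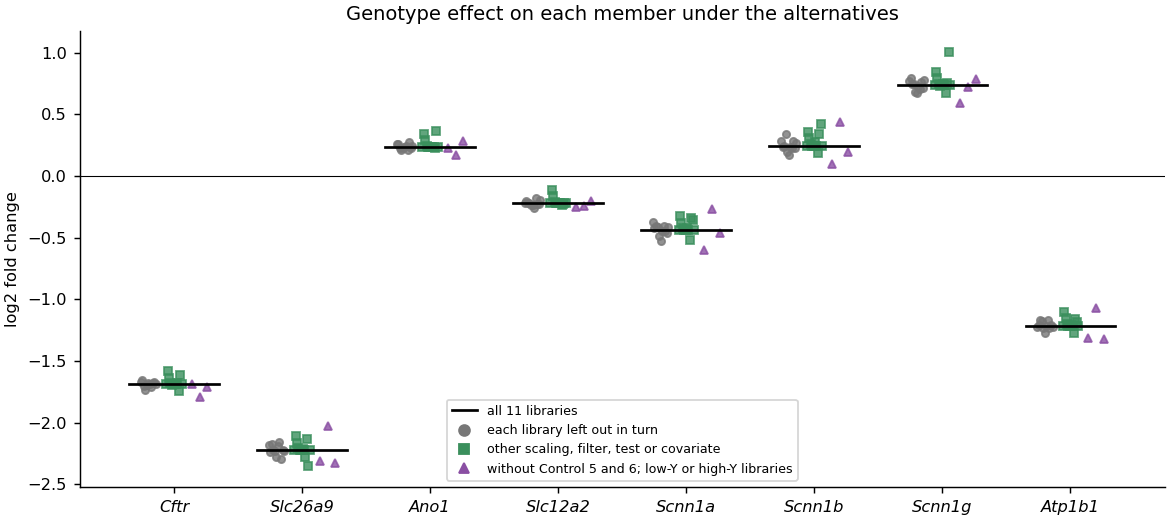
Log2 fold change of each member with all 11 libraries (black line), with each library left out in turn (grey), under another scaling, filter, test, block or covariate (green), and without Control libraries 5 and 6 or among libraries with low or high Y-linked transcripts only (purple). Each member keeps its sign in every fit; Cftr runs from -1.79 to -1.58 and Scnn1b from 0.097 to 0.44.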

How the data were processed

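Poly(A) RNA of EpCAM-selected cells was sequenced in 11 libraries, 6 Control and 5 PRDM3/16KO. The authors deposited 1 table of raw counts per gene symbol with 24421 rows. The submitters' processing notes name the build mm10 and, without their roles, HTSeq 2.0, Bowtie2 2.4.2, DESeq2, Picard 2.18.22, Trim Galore 0.4.2, FastQC and SAMtools 1.10.0; annotation, strand and duplicate settings were not given in the sources used here.

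Low-count genes were removed with edgeR's filterByExpr (13916 left), and the rest were scaled by TMM and tested in 1 fit of all libraries with edgeR 4.0.16 (R 4.3.3), using its robust quasi-likelihood test; p-values were two-sided and Benjamini-Hochberg adjusted across every gene tested. CPM is mean ± SD; the SE is the unshrunk coefficient over the square root of F. The 5 within-library ratios, with 0.5 added to counts, had exact permutation tests, adjusted over all 5; 1 of them and some genes that the naming rule picked are not reported here. Steps were tested on simulated data. Lengths and coordinates are from GENCODE M21 (mm10). Replicates differed by more than counting noise (chi-square per degree of freedom 3.21 to 27.2).

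Members, lists and alternatives were chosen with earlier results of these data known. Named genes are the members, Prdm16, Mecom, Nkx2-1 and Epcam, up to 4 called genes by adjusted p and 2 abundant uncalled genes per list, defining marker genes, and the 3 closest patterns per called member. Genes near the members were chosen by position. Kcnj15 was named outside this rule, for its level, and was not followed through the alternatives. Alternatives were DESeq2 1.42.0, limma-voom (3.58.1), other scalings and filters, no robust moderation, a replicate block, Y-linked and mesenchymal covariates, a threshold of 0.01, and each library left out. Leaving out Control 5 and 6, and fits by Y-linked level (divided at 3 log2 CPM), were added after seeing the data. Totals ran from 6065906 to 7869787 counts per library.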

Additional observations from a re-analysis of the deposited data

Results flagged for a closer look

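Of 24 sets of values examined, the 8 members and 4 ratios in each group, 2 had a library far from the others, and chance flags about 1 set in 20. Knockout library 2 had the highest Cftr level of its group, 43.8 CPM, at a gap of 0.720 of the group's range from the next library. In knockout library 5 the log2 ratio of Scnn1g over Scnn1b was 1.78, the lowest of its group, at a gap of 0.720 of the range.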

How the results depend on the processing

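Over 26 alternative fits each, all 8 members kept their sign, and 191 of 208 values kept their side of the threshold; Cftr, Slc26a9, Scnn1g and Atp1b1 kept it in every one. Scaling by library size only shifted the all-gene median from 0.0023 to 0.11 (log2) and 65.4% of calls were higher against 49.2%; Slc12a2 was -0.11 (not called), Scnn1b 0.36 (called), and 23 other transport genes were higher and 21 lower. Scnn1b was also called with upper-quartile factors (0.31) and the Y-linked covariate (0.34). With the mesenchymal covariate Slc12a2 (-0.22) and Scnn1a (-0.36) were not called, 3 members were lower, and 1572 genes were higher and 1591 lower, against 2936 and 3036. At a threshold of 0.01, Ano1 (0.24) and Slc12a2 (-0.22) were not called, which left 1 member higher. Leaving out 1 library gave -0.26 to -0.18 for Slc12a2 and 0.17 to 0.34 for Scnn1b. Among libraries with low Y-linked transcripts, Ano1 (0.17), Slc12a2 (-0.24) and Scnn1a (-0.27) were not called and Scnn1b (0.44) was; 3 members were lower, 17 other transport genes were lower, and 1932 genes were higher and 1821 lower. Among those with high levels, where the single knockout library is assumed to vary like the others, Ano1 (0.29), Slc12a2 (-0.21) and Scnn1a (-0.46) were not called; 1 member was higher and 3 lower, 7 other transport genes were higher and 12 lower, and 869 genes were higher and 933 lower. These sets hold fewer samples, and calls lost against the single knockout library say little, since its values are near those with all libraries and their SEs larger; otherwise the cause was not tested. The labels of same-numbered libraries shared only a number. Correlations of their deviations ran from -0.061 to 0.27, and 1 of 5 knockout libraries was closest to its own number. So few values cannot settle whether the libraries were paired. The replicate block, without Control library 6, changed no member's call and gave 3065 genes higher and 3105 lower; for the ratios, sign flips within 5 numbers gave 0.70, 1.19, 0.49 and -1.16 (exact test, p = 0.0625 for each, the smallest 5 pairs allow). Of 25 called genes that the naming rule gave from the other lists, 15 kept their call in every fit. Of 16 uncalled ones, 6 were called in some fit.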

Other observations

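Genes beside the members on the chromosome did not move as the members did in several places. Within 250 kb of Cftr, 3 genes were tested: Cttnbp2, 43.7 kb away, rose (19.4 to 121 CPM, 2.63 on the log2 scale, edgeR adjusted p = 2.54e-08), St7 fell (-0.30) and Wnt2 did not pass (0.073). Around Slc26a9, 5 of 9 tested genes rose and 2 fell, where 21.1% of all genes tested rose and 21.8% fell. Pm20d1, 25.9 kb away, fell from 9.76 to 1.43 CPM (-2.74), and the magnesium transporter gene Slc41a1, 56 kb away, fell from 149 to 80.7 CPM (-0.88), while Rab7b, 28.6 kb away, rose (1.23).

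Near Scnn1a, Tnfrsf1a (4.42 kb away) and Ltbr (6.77 kb away), receptors of the tumour necrosis factor family, fell with it (log2 fold changes -0.51 and -0.54); 4 of 13 tested genes within 250 kb rose and 4 fell. Usp31, 27.2 kb from Scnn1g, rose (0.51; edgeR adjusted p = 2.99e-04). None of the 5 genes tested around Ano1 was called. Around Atp1b1, 2 rose, 0 fell and 3 did not pass. Around Scnn1b, with Scnn1g among its neighbours, 4 rose, 1 fell and 5 did not pass. The 1 gene tested around Slc12a2, Fbn2, fell (-0.68). Of all genes tested 42.9% were called, 21.1% higher and 21.8% lower. These distances describe position in the mm10 annotation only.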
